A study of Homo sapiens with 18 samples.

Results

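Matrix metalloproteinases (MMPs) and the tissue inhibitors of metalloproteinases (TIMPs) were followed in EpCAM+ hepatocellular carcinoma (HCC) cells treated with disulfiram (DSF) or 5-fluorouracil (5-FU). The group held 10 genes, MMP1, MMP7, MMP9, MMP11, MMP14, MMP15, MMP24, TIMP1, TIMP2 and TIMP3, of 19720 genes with a symbol on the array. The group was chosen by the 5-FU minus control difference of MMP7, so the 5-FU values of these genes and their differences from control are given as a description, with no test. The direct contrast of DSF with 5-FU was tested for the genes other than MMP7. DSF and 5-FU were set against the same control arrays, so the low MMP7 level of the Huh7 control cells enters both sets of differences. The DSF differences of MMP7 from control are therefore a description too. Each gene was read by 1 probe, with 10 replicate spots for MMP1 and for MMP9.

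MMPs are zinc-dependent endopeptidases that cut collagens, laminins and other proteins of the extracellular matrix, as well as proteins at the cell surface. Most are made as inactive proenzymes and are activated by removal of a propeptide, often by plasmin or by another MMP. TIMPs bind the active enzymes and block them, and TIMP2 also takes part with MMP14 in the activation of pro-MMP2. In HCC the balance between both families is studied for its part in invasion and matrix turnover. The arrays measured RNA and carry no information on enzyme activity.

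The cells came from Huh1 and Huh7, established human HCC lines. Each line was cultured for 48 hours with DSF (0.1 µM), an inhibitor of aldehyde dehydrogenase, with 5-FU (1 µM), an antimetabolite, or as control. EpCAM+ cells were isolated by flow cytometry, and the sources used here do not settle whether before or after the treatment. EpCAM is a surface antigen used in this study to enrich tumor-initiating cells. The methods list DSF together with CuCl2 and do not say what the control cells received. Each of the 6 groups had 3 one-colour Agilent arrays from independent experiments, 18 in all. A level below is the log2 processed signal of a probe minus the log2 75th percentile of its array, so that 0 is the 75th percentile of the array and 1 unit is a 2-fold step.

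Between 59.9% and 71.1% of the probes were well above background on an array, and replicate arrays of a group correlated at 0.989 or higher across probes. All 8 hepatocyte and HCC marker genes, EPCAM among them, were well above background on every array. Of 7 fibroblast and stellate cell genes, 2 were well above background on all Huh7 control arrays and 4 on all Huh7 5-FU arrays, and the summed level of the list on the log2 scale was -0.97 to -0.88 in the former, 1.60 to 1.68 in the latter and -1.09 to -1.001 after DSF. In Huh1 the same sum was -0.03 to 0.63 in control, 0.49 to 1.16 after 5-FU and 0.12 to 0.22 after DSF. LUM was the brightest gene of this list in every group and made up most of the sum, at means of -1.23, 1.49 and -1.24 in Huh7 control, 5-FU and DSF cells. THY1 was not well above background on any array, and the part of these genes in the 5-FU differences was not tested. Of 4 endothelial genes, 2 or 3 were well above background on all arrays of every group. Of 5 leukocyte genes, 4 or 5 were well above background on all arrays of every group, with sums in Huh7 of 0.94 to 0.96 in control, 1.52 to 2.16 after 5-FU and 0.91 to 1.03 after DSF. In sorted cells measured in bulk, fewer cells expressing a gene and less RNA per cell cannot be told apart.

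The array of Huh1 control replicate 1 lay more than 0.5 log2 units outside the other 2 for 5 of the 10 genes, and Huh7 5-FU replicate 1 did so for 4. Replicates 2 and 3 of Huh7 DSF were on a slide of their own, and the control cells of the lines lay on different slides. With slide as a block, the DSF differences in Huh7 therefore rest on replicate 1 of Huh7 DSF, and are given below as values only.

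MMP7 (matrilysin), a small secreted MMP that lacks the hemopexin domain and is typically made by epithelial cells, was well above background on all Huh1 arrays and on no array of untreated Huh7. Its level in Huh1 was 0.77, -0.21 and -0.35 in control, 1.48, 2.00 and 2.02 after 5-FU, and 2.00, 1.96 and 1.97 after DSF. In Huh7 it was -8.19, -6.73 and -7.70 in control, where no array was well above background, -1.44, -1.71 and -1.62 after 5-FU, and 0.29, 0.23 and 0.32 after DSF. All treated arrays lay above the control arrays of their line, and DSF and 5-FU arrays overlapped in Huh1 and did not in Huh7. As a description, MMP7 was higher after DSF by 1.90 ± 0.32 log2 units in Huh1 (SE, n = 3 a group) and at least 134-fold in Huh7 (means 0.28 and -7.54). Each SE and adjusted p given here comes from 1 limma fit. After 5-FU, MMP7 was higher by 1.76 ± 0.32 log2 units in Huh1 and at least 36.7-fold in Huh7 (means -1.59 and -7.54). A bound "at least" sets the treated mean against the lowest signal well above background on each control array, or the probe's own signal where that was higher. Without Huh1 control replicate 1, the DSF change in Huh1 was 2.25.

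The order of the 6 group means of MMP7 was Huh1 DSF, Huh1 5-FU, Huh7 DSF, Huh1 control, Huh7 5-FU and Huh7 control. Arrays of the first and second group overlapped, and so did those of Huh7 DSF and Huh1 control.

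**Figure D1:**
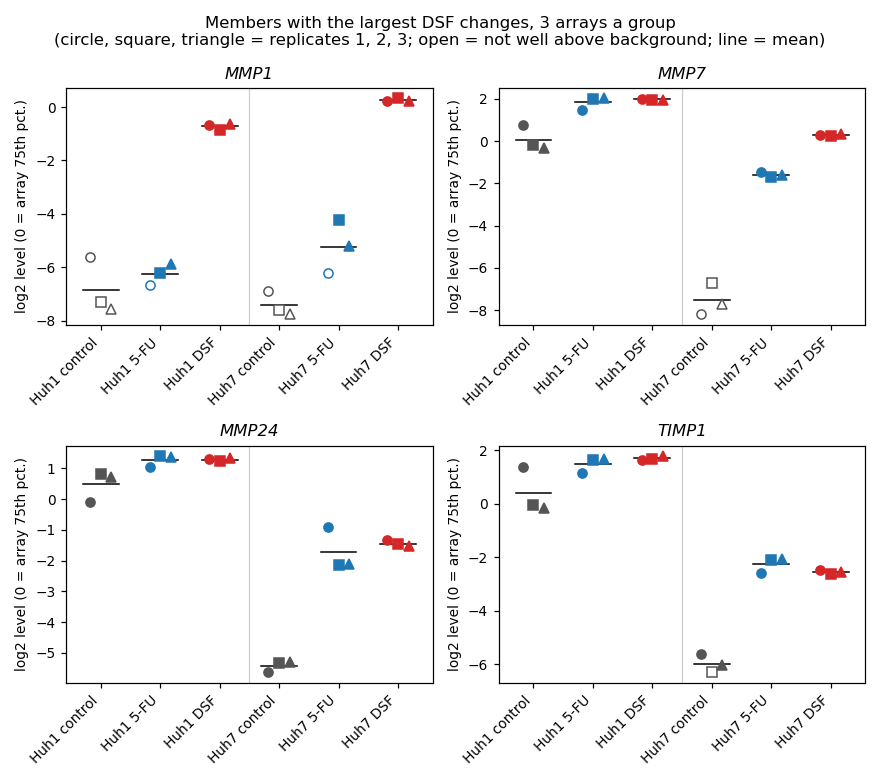
Level of MMP1, MMP7, MMP24 and TIMP1 on each array (vertical axis, log2 signal relative to the 75th percentile of the array) by group (horizontal axis). Points are arrays, open points are not well above background, and lines are group means; in Huh7, MMP7 lay at or below -6.73 on the 3 control arrays and at or above 0.23 on the 3 DSF arrays.

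The promoters of MMP7, TIMP1 and MMP24 are shown because these 3 genes shared a pattern, a low level in untreated Huh7 and a higher one in every other group. The sequences are the 250 bases before the RefSeq start site (GRCh38.p14), 5′ to 3′ on the strand of the gene, and 7 of the 10 genes had an entry. Capitals mark the AP-1 type motif TGANTCA, the ETS-type motif AGGAAG and the TATA box letters TATAAA, searched on both strands. MMP7 lies at chr11:102530748-102530997 (minus strand), TIMP1 at chrX:47582186-47582435 (plus strand) and MMP24 at chr20:35226440-35226689 (plus strand).
MMP7: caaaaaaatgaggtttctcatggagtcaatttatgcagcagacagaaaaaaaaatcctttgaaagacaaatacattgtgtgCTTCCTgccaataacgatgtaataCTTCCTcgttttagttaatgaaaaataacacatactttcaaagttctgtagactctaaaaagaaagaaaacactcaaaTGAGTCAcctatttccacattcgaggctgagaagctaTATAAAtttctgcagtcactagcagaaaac
TIMP1: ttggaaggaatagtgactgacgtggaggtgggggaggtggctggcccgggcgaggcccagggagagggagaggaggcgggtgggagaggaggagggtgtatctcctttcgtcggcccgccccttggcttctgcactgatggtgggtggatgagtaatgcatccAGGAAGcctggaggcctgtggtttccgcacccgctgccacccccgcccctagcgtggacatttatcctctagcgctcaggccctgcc
MMP24: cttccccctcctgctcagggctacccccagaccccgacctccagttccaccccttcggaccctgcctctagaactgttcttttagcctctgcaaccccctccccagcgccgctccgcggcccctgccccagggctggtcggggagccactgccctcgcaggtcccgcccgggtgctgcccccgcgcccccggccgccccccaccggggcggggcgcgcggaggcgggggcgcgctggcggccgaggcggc

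The MMP7 window held all of these motifs, with TGAGTCA beginning 67 bases before the start site, ETS-type matches (CTTCCT on this strand) at -169 and -145 and TATAAA at -30. The TIMP1 window held AGGAAG at -87, and the letters searched were not in the MMP24 window. Among 35116 RefSeq promoter windows of this length, 6.57% held TGANTCA, 28.7% AGGAAG and 10.72% TATAAA, so that matches to the ETS-type motif in particular are common. The matches describe the letters of these windows, and binding was not measured.

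MMP1 (interstitial collagenase), which cuts fibrillar collagens, was near or below background in both lines without DSF. Its level in Huh1 was -5.62, -7.31 and -7.57 in control, with no array well above background, -6.66, -6.21 and -5.87 after 5-FU, with 2 of 3 above, and -0.67, -0.85 and -0.62 after DSF. Its Huh7 level was -6.87, -7.58 and -7.75 in control, -6.23, -4.23 and -5.21 after 5-FU, again with 2 of 3 above, and 0.21 to 0.32 after DSF. The DSF arrays of both lines stood far above all others, and the control and 5-FU arrays overlapped in Huh1. MMP1 rose at least 45.1-fold in Huh1 (means -0.71 and -6.83, adjusted p = 3.37e-07) and at least 131-fold in Huh7 (means 0.25 and -7.40, adjusted p = 4.37e-08). It passed the filter on low signal only through the DSF groups in which it was high, so that a difference was built into its being tested. With every probe tested and no filter, its adjusted p was 7.38e-07 in Huh1 and 9.93e-08 in Huh7. It was higher after DSF than after 5-FU by 5.54 ± 0.49 log2 units in Huh1 and 5.48 ± 0.49 in Huh7 (adjusted p = 7.40e-07 and 3.71e-07), or 3.55 and 4.09 when the background was corrected by normexp. The 5-FU level exceeded control by 0.59 ± 0.49 in Huh1, or 1.19 without Huh1 control replicate 1, and at least 2.94-fold in Huh7. With normexp correction these differences were -0.28 and 0.15 log2 units.

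MMP1 lies near MMP7 on chromosome 11, where 9 MMP genes follow one another in the RefSeq annotation (GRCh38.p14) in the order MMP7, MMP20, MMP27, MMP8, MMP10, MMP1, MMP3, MMP12 and MMP13. After DSF, MMP7, MMP10, MMP1 and MMP3 were well above background on all 3 arrays in both lines, and MMP12 in Huh7. MMP20, MMP27, MMP8 and MMP13 were well above background on at most 1 array of any group. MMP10 (stromelysin-2), which cuts several matrix proteins and can activate procollagenases, was not well above background on any control array; its level was -1.62, -1.78 and -1.82 on the Huh1 DSF arrays and 0.06, 0.08 and 0.06 on those of Huh7, at least 27.4-fold and 116-fold over control (adjusted p = 1.18e-07 and 5.68e-09). After 5-FU it was not well above background in Huh1, at -8.50 to -8.14, and at -4.82, -2.77 and -2.29 in Huh7. MMP3 (stromelysin-1), which can activate pro-MMP1, reached -3.61, -3.62 and -3.55 in Huh1 and -2.08, -2.66 and -2.80 in Huh7 after DSF, at least 7.58-fold and 19.4-fold over control (adjusted p = 3.82e-08 and 1.79e-09). No control or 5-FU array of either line had MMP3 well above background. MMP12 (macrophage elastase) was well above background on all Huh7 arrays with either agent, at -5.59 to -4.87 after DSF and -4.77 to -4.47 after 5-FU, and on none of Huh1. MMP10, MMP3 and MMP12 also passed the filter only through groups in which they were high. With no filter, the adjusted p of MMP10 and MMP3 in both lines and of MMP12 in Huh7 lay between 4.60e-09 and 4.37e-06. The TGANTCA motif was found in the promoter windows of MMP7, MMP10 (at -67) and MMP20 (at -112), and there was no entry for MMP1, MMP3, MMP12 and MMP13.

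MMP9 (gelatinase B) and MMP11 (stromelysin-3, which is activated inside the cell by furin-type convertases) were the other secreted enzymes. MMP9 in Huh1 was -3.84, -3.90 and -3.90 in control, -3.95 to -3.73 after 5-FU and -3.40, -3.43 and -3.49 after DSF, where it rose by 0.44 ± 0.08 log2 units (adjusted p = 3.59e-04). Huh7 cells had -3.77 to -3.73 in control, -3.59 to -3.54 after 5-FU and -3.74, -3.42 and -3.47 after DSF. The DSF difference in Huh7, 0.20 ± 0.08 (adjusted p = 0.0428), came from the arrays on the separate slide. It was 0.0066 on the slide that held all other Huh7 arrays, and the same with slide as a block, each with 1 DSF array. The difference failed the test without any 1 of the Huh7 control arrays (0.19 to 0.21), and at 0.14 and 0.17 without Huh7 DSF replicates 2 and 3. After 5-FU, MMP9 was 0.04 and 0.18 above control in Huh1 and Huh7, and -0.17 and -0.06 with normexp correction. MMP11 fell after DSF, by 0.91 ± 0.21 in Huh1 and by 1.74 ± 0.21 in Huh7 (adjusted p = 0.00228 and 1.16e-05). Its level in Huh7 was -2.34, -2.21 and -2.26 in control, -5.13, -4.33 and -4.50 after 5-FU and -4.05, -4.02 and -3.97 after DSF, with no overlap between any of these groups. In Huh1 the levels were -4.65 to -4.44, -5.86 to -4.96 and -5.55 to -5.29, and both sets of treated arrays lay below control. After 5-FU MMP11 was lower by 0.90 ± 0.21 in Huh1 and by 2.38 ± 0.21 in Huh7, and the differences were -0.07 and -1.40 when arrays were scaled to the spike-in probes.

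The membrane-type enzymes are anchored at the cell surface, and did not move together. MMP24 (MT5-MMP), known mainly from neural tissue, was -0.09, 0.83 and 0.72 in Huh1 control cells, 1.05, 1.39 and 1.38 after 5-FU and 1.29, 1.25 and 1.32 after DSF. The Huh7 levels were -5.62, -5.33 and -5.31 in control, -0.90, -2.15 and -2.12 after 5-FU and -1.34, -1.46 and -1.53 after DSF. In Huh7 control replicates 1 and 2, 1 of 2 spots was well above background, so this level lies near background. Every treated array was above the controls of its line, and arrays of both agents overlapped. DSF raised MMP24 by 3.97 ± 0.29 log2 units in Huh7 (adjusted p = 1.21e-07), or 2.35 with normexp correction. In Huh1 it rose by 0.80 ± 0.29 (adjusted p = 0.0349), a call that was lost without Huh1 control replicate 1 (0.51) and without any 1 of the Huh1 DSF arrays (0.78 to 0.82). With 5-FU it was higher by 0.79 ± 0.29 in Huh1, or 0.50 without Huh1 control replicate 1, and by 3.70 ± 0.29 in Huh7. The Huh7 value was 2.07 with normexp correction.

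MMP14 (MT1-MMP), a collagenase and the main activator of pro-MMP2, was -1.88, -1.13 and -1.30 in Huh1 control cells, -1.26 to -1.09 after 5-FU and -1.89, -1.99 and -1.94 after DSF. In Huh7 it was -0.97 to -0.94 in control, -0.09, -0.27 and -0.48 after 5-FU and -1.24, -1.12 and -1.06 after DSF. The DSF arrays were the lowest of each line. MMP14 fell by 0.50 ± 0.15 log2 units after DSF in Huh1 (adjusted p = 0.0132), which no longer passed under spike-in scaling (-0.37), with each line fitted alone or the arrays of 1 slide alone (-0.50 in each), or without Huh1 control replicate 2 (-0.35) or 3 (-0.43), and differed by -0.19 ± 0.15 in Huh7 (adjusted p = 0.325). After 5-FU it was higher by 0.29 ± 0.15 in Huh1, where groups overlapped and the value was 0.07 without Huh1 control replicate 1, and by 0.68 ± 0.15 in Huh7. MMP15 (MT2-MMP) was 2.05, 1.99 and 2.04 in Huh7 control cells, 1.82, 1.86 and 1.37 after 5-FU and 1.27, 1.31 and 1.31 after DSF, and it fell by 0.73 ± 0.13 with DSF (adjusted p = 3.46e-04). In Huh1 it was 0.75, 1.24 and 1.21, then 0.75 to 0.79 and 0.95 to 1.05, and the DSF difference of -0.08 ± 0.13 did not pass the test (adjusted p = 0.627). After 5-FU it was lower by 0.30 ± 0.13 in Huh1 and 0.35 ± 0.13 in Huh7, and above control by 0.52 and 0.64 under spike-in scaling.

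TIMP1, an inhibitor of most secreted MMPs, was 1.38, -0.06 and -0.17 in Huh1 control cells, 1.15, 1.63 and 1.67 after 5-FU and 1.63, 1.65 and 1.77 after DSF. In Huh7 it was -5.62, -6.29 and -6.02 in control, with 2 of 3 arrays well above background, -2.61, -2.11 and -2.07 after 5-FU and -2.499, -2.63 and -2.54 after DSF. All 3 DSF arrays lay above control in each line, and 5-FU and control overlapped in Huh1 through control replicate 1. TIMP1 rose after DSF by 1.30 ± 0.32 log2 units in Huh1 and 3.42 ± 0.32 in Huh7 (adjusted p = 0.00415 and 1.37e-06). Without Huh1 control replicate 1 the former was 1.80, and with the arrays of 1 slide alone it was 1.26 and no longer passed. With 5-FU it was higher by 1.099 ± 0.32 in Huh1 and 3.72 ± 0.32 in Huh7, the latter 1.78 with normexp correction.

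TIMP3 fell with DSF in both lines and TIMP2 in Huh7. TIMP3, a matrix-bound inhibitor that also blocks several ADAM proteases, was -0.52, -0.38 and -0.35 in Huh1 control cells, -0.57, -1.07 and -1.16 after 5-FU and -1.65, -1.62 and -1.57 after DSF. In Huh7 it was 1.64 to 1.67 in control, 1.06, 1.26 and 1.19 after 5-FU and 1.34, 1.26 and 1.29 after DSF. No groups of a line overlapped in either line. DSF lowered TIMP3 by a log2 difference of -1.20 ± 0.12 in Huh1 (adjusted p = 1.87e-06) and -0.36 ± 0.12 in Huh7 (adjusted p = 0.0224). In Huh7 the difference was -0.31 within the slide that held most Huh7 arrays and with slide as a block, each with 1 DSF array. It did not pass without Huh7 control replicate 1 or 2 or without Huh7 DSF replicate 2 or 3 (-0.35 to -0.34). TIMP2 was 2.31, 1.99 and 1.99 in Huh1 control cells and 2.03, 2.07 and 2.16 after DSF, a difference of -0.01 ± 0.11 (adjusted p = 0.952). In Huh7 TIMP2 was 2.41, 2.46 and 2.44 in control, 1.95, 2.15 and 1.70 after 5-FU and 1.51, 1.34 and 1.29 after DSF, and it fell by 1.05 ± 0.11 with DSF (adjusted p = 5.79e-06). After 5-FU, TIMP3 was lower by 0.52 ± 0.12 in Huh1 and 0.48 ± 0.12 in Huh7 and TIMP2 by 0.50 ± 0.11 in Huh7, whereas under spike-in scaling these 3 values were above control, at 0.31, 0.50 and 0.48. In Huh1, TIMP2 was higher by 0.26 ± 0.11 after 5-FU, with levels of 2.51, 2.29 and 2.28.

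**Figure D2:**
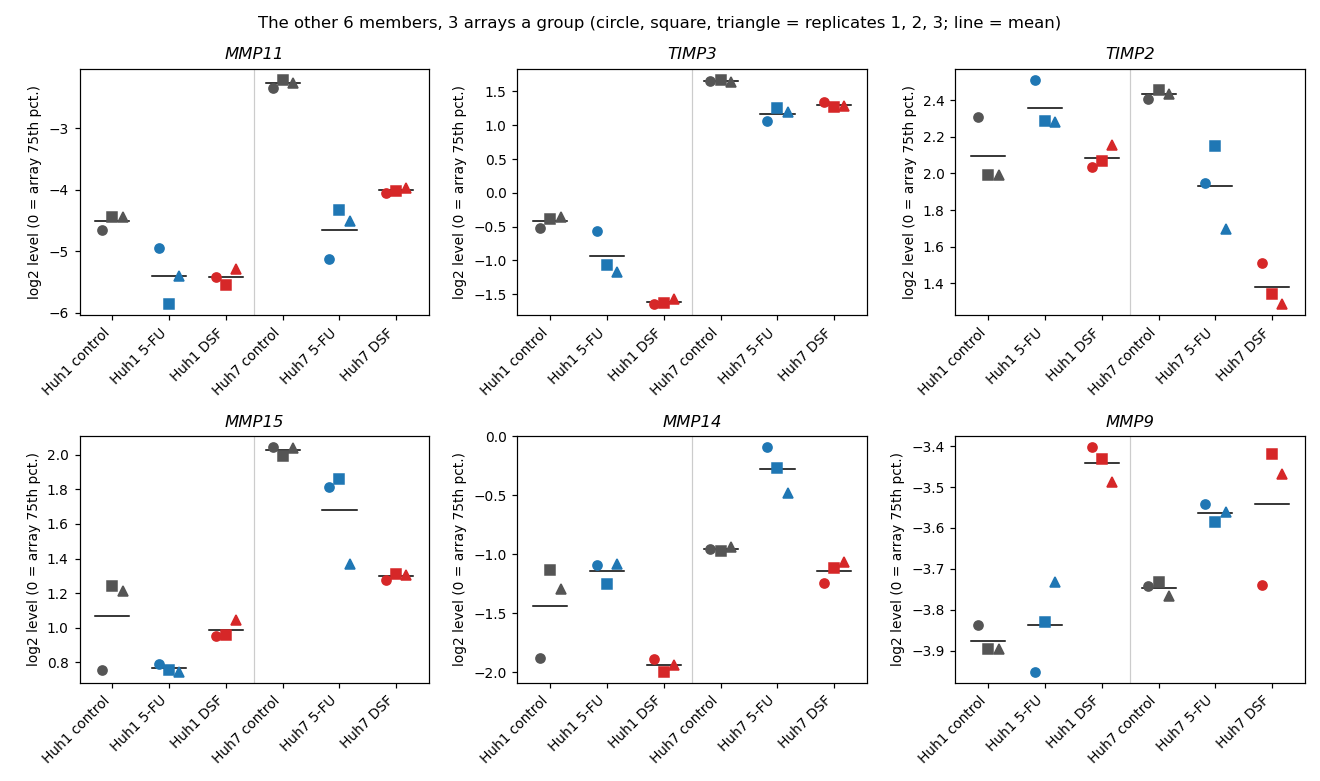
Level of MMP11, TIMP3, TIMP2, MMP15, MMP14 and MMP9 on each array (vertical axis, log2 signal relative to the 75th percentile of the array, a different range in each panel) by group. Points are arrays and lines are group means; TIMP2 in Huh7 lay between 2.41 and 2.46 in control and between 1.29 and 1.51 after DSF.

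Over the 10 genes, 5 rose and 3 fell after DSF in Huh1, with a median log2 change of 0.21 against -0.02 over all genes. In Huh7, 5 rose and 4 fell, with a median of 0.01 against 0.04. Change was common on these arrays: 52.7% of 15844 genes tested passed in Huh1 (26.4% higher and 26.3% lower) and 53.2% in Huh7 (29.1% and 24.1%). MMP1, MMP7, MMP9, MMP24 and TIMP1 were the genes that rose in each line, and MMP11 and TIMP3 fell in each. MMP7 is counted here and below as a description, since its control level entered the choice of the family. MMP1 was tested only because of its DSF level. With slide as a block 7 genes passed in Huh1, without MMP24. In Huh7 the block left 1 DSF array, with MMP9 at 0.0066 and TIMP3 at -0.31. With normexp correction, which adds a constant to every signal and so compresses changes of dim probes, the DSF changes were smaller: 4.34 for MMP7, 4.23 for MMP1, 2.35 for MMP24 and 1.54 for TIMP1 in Huh7, and 3.27 for MMP1, 0.24 for MMP9 and -0.28 for MMP11 in Huh1, each still past the threshold. The bounds above hold for the processed signal.

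Untreated cells of the lines differed in 8 of the 10 genes, MMP7 among them, whose control level entered the choice of the family, against 77.9% of all genes (39.3% higher and 38.6% lower in Huh7). MMP7, MMP24 and TIMP1 were lower in Huh7, MMP7 at least 116-fold as a description (means -7.54 and 0.07), MMP24 by -5.91 ± 0.29 log2 units and TIMP1 by -6.36 ± 0.32 (adjusted p = 1.09e-10 and 1.64e-10 for the latter), and with normexp the last 2 differences were -4.12 and -4.18. MMP11, TIMP3, MMP15, MMP14 and TIMP2 were higher in Huh7, by 2.24 ± 0.21, 2.07 ± 0.12, 0.96 ± 0.13, 0.48 ± 0.15 and 0.34 ± 0.11 (adjusted p between 6.03e-10 and 0.0174). Line and slide cannot be told apart here except through 1 Huh1 DSF array on the Huh7 slide, and a fit with slide as a block kept 6 calls, losing MMP14 and TIMP2. TIMP2 also failed without Huh1 control replicate 2 or 3, at 0.28 in each. After DSF, the genes that were low in Huh7 had come nearer to their Huh1 level: the Huh7 mean minus the Huh1 mean went from -5.91 to -2.73 for MMP24 and from -6.36 to -4.24 for TIMP1, and was -1.70 for MMP7 after DSF. The DSF response differed between the lines for 7 of the 10 genes (46.3% of all genes, 24.3% above 0 and 21.9% below), with a larger rise in Huh7 of MMP7, MMP24 and TIMP1, a larger fall of MMP11, MMP15 and TIMP2, and a smaller fall of TIMP3. The larger rises, and the narrower gaps, start from Huh7 control levels at or near background. With normexp correction the rise in Huh7 exceeded that in Huh1 by 1.61 for MMP24 and by 0.30 for TIMP1, which no longer passed. Among all 426 genes above background on every Huh1 control array and no Huh7 control array, 73 (17.1%) were above background on all Huh7 DSF arrays and 63 (14.8%) on all Huh7 5-FU arrays, as was MMP7.

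Set directly against each other, DSF and 5-FU differed in 4 of 9 genes in Huh1 and 5 of 9 in Huh7, with MMP7 left out because it chose the family (55.8% and 65.2% of all genes). MMP1 is counted in both lines, though it was tested only because of its DSF level. MMP1 was higher and MMP14 lower after DSF in both lines, MMP14 by -0.80 ± 0.15 and -0.86 ± 0.15 log2 units (adjusted p = 5.05e-04 and 1.79e-04). In Huh1, TIMP3 was lower after DSF by -0.68 ± 0.12 and MMP9 higher by 0.40 ± 0.08, the latter turning to -0.30 under spike-in scaling. In Huh7, TIMP2 and MMP15 were lower after DSF, by -0.55 ± 0.11 and -0.38 ± 0.13, and MMP11 was higher by 0.64 ± 0.21, the latter turning to -0.52 under spike-in scaling. With slide as a block, which left 1 Huh7 DSF array, the Huh7 differences were 5.45 for MMP1, -0.96 for MMP14, -0.42 for TIMP2, -0.41 for MMP15 and 0.61 for MMP11. Without Huh7 5-FU replicate 1, MMP11 (0.41) and MMP15 (-0.32) failed the test and MMP24 passed it (0.69), and MMP15 failed without replicate 2 (-0.30). As a description, MMP7 was 1.87 ± 0.32 higher after DSF than after 5-FU in Huh7 and 0.15 ± 0.32 higher in Huh1, or 0.71 and -0.55 under spike-in scaling. Scaling matters for 5-FU because the 75th percentile of its arrays was higher against the spike-in probes, by 0.83 in Huh1 and 0.99 in Huh7 compared with control, and by 0.13 and -0.17 for DSF.

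The difference of 2 probes on the same array does not depend on that scaling. MMP14 minus TIMP2, an enzyme and the inhibitor it acts with, shifted by 0.87 log2 units with DSF in Huh7 (exact permutation test, two-sided p = 0.1, the smallest that 3 against 3 arrays allow) and by -0.49 in Huh1 (exact permutation p = 0.4). The permutation does not separate slide from DSF in Huh7. There the control arrays were at -3.42 to -3.37 and DSF replicate 1, on the same slide, at -2.76. DSF replicates 2 and 3, on the separate slide, were at -2.46 and -2.35. After 5-FU, MMP14 minus TIMP2 was 1.18 higher than control in Huh7 and 0.03 in Huh1, where the value ran from -0.30 to 0.24 with 1 array left out and was -0.097 with normexp correction. MMP7 minus TIMP1 is given as a description, since the control level of MMP7 entered the choice of the family. It was above control by 4.40 with DSF in Huh7 and 0.60 in Huh1, and by 2.23 and 0.66 after 5-FU. Its Huh7 control values were -2.58, -0.44 and -1.67. In Huh7 both probes were near background in control cells, and with normexp correction the shift was 2.80 for DSF and 0.83 for 5-FU.

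Of 17 other MMP and TIMP genes on the array 10 could be tested, and the 7 left out, MMP2, MMP8, MMP13, MMP20, MMP21, MMP26 and MMP27, were well above background on 0 to 2 of the 18 arrays. With DSF, 6 rose and 1 fell in Huh1, and 7 rose in Huh7 with none lower, against 52.7% and 53.2% of all genes changed. The counts include MMP10 and MMP3 in both lines and MMP12 in Huh7. These were tested only through groups in which they were high, so their rise was built into the counts. With slide as a block the Huh1 counts were the same. In Huh7 the block left 1 DSF array, with MMP17 at -0.77 and MMP28 at -0.68, against 0.05 and -0.30 in the main fit. Of the 7 genes counted as higher in Huh7, only MMP19 turned its sign there, at -0.05 against 0.63. Its DSF and control arrays overlapped in Huh7. Besides MMP10 and MMP3, MMP25 (MT6-MMP) rose by 1.87 ± 0.14 log2 units in Huh1 (adjusted p = 1.72e-07), from a mean of -4.27 to -2.39, and MMP12 at least 3.14-fold in Huh7 (adjusted p = 2.01e-06). As a description, TIMP4 in Huh7 was at 0.10 after 5-FU and at 0.08 after DSF, against -1.23 in control.

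Genes that activate MMPs or inhibit the activating proteases changed in both directions with DSF: 5 rose and 8 fell of 22 in Huh1, and 5 rose and 9 fell in Huh7, with median log2 changes of -0.15 and -0.14, where 52.7% and 53.2% of all genes changed. Blocking on slide moved the Huh1 counts to 5 and 10. Those of Huh7 were not checked against slide, since the block left 1 DSF array. In Huh1, TFPI2, an inhibitor of plasmin and other serine proteases, rose by 3.05 ± 0.29, and PLAUR, the urokinase receptor, by 2.58 ± 0.20, whereas SERPINF2, the plasmin inhibitor, fell by 1.90 ± 0.20 log2 units (adjusted p = 1.32e-06, 2.02e-07 and 3.04e-06). The TFPI2 control mean of -5.33 lay near background, with 2 of 3 arrays well above it. Without Huh1 control replicate 1 the TFPI2 rise was 3.49. In Huh7, PLG (plasminogen) fell by 3.24 ± 0.33, TMPRSS4 fell by 2.75 ± 0.33 and HPN (hepsin) fell by 2.37 ± 0.30 (adjusted p = 2.70e-06, 1.47e-05 and 1.96e-05), the last 2 being membrane-anchored serine proteases. PLG ended near background, at a mean of -5.84 with 2 of 3 DSF arrays well above it. As a description, PLAUR was higher after 5-FU in Huh1, at -1.32 against -2.84, and TFPI2 in Huh7, at 5.05 against 1.52. TFPI2 in Huh7 was at 3.10 after DSF.

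The ADAM proteases, several of which are inhibited by TIMP3, and the substrates also changed in both directions. Of 10 ADAM and ADAMTS genes tested, 5 rose and 1 fell with DSF in Huh1, led by ADAM8 (1.98 ± 0.13, adjusted p = 6.38e-08), and 2 rose and 3 fell in Huh7, with medians of 0.41 and 0.07. These Huh7 counts were not checked against slide either, for the same reason. ADAM19 rose by 0.83 ± 0.19 in Huh1 and fell by 1.497 ± 0.19 in Huh7 (adjusted p = 0.00278 and 2.53e-05). Among 26 genes for matrix and cell surface substrates, 7 rose and 12 fell with DSF in Huh1 and 11 rose and 10 fell in Huh7, with medians of -0.26 and -0.11. Blocking on slide left 5 higher and 9 lower in Huh1. The Huh7 counts were not checked against slide, where 1 DSF array remained. The shares of all genes changed are the 52.7% and 53.2% given above, for the ADAM genes too. LAMB3, a laminin chain, rose by 2.38 ± 0.31 in Huh1 (adjusted p = 2.81e-05). In Huh7, SPP1 (osteopontin) rose by 3.48 ± 0.18 and HBEGF, a growth factor shed from the cell surface, by 1.89 ± 0.10 (adjusted p = 5.94e-09 and 4.49e-09). IGFBP5, a binding protein for insulin-like growth factors, was at least 6.99-fold lower with DSF in Huh1 (adjusted p = 2.28e-04). It was well above background on all 3 Huh1 control arrays and on 1 Huh1 5-FU array. No DSF array of either line and no Huh7 control array showed it so. Its Huh1 control level thus let it pass the filter on low signal, which favoured a fall with DSF. As a description, HBEGF was also higher after 5-FU in Huh7, at -2.04 against -4.95.

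Among 20552 probes compared over the 18 arrays, those with levels most like MMP7 were GPATCH4, BTBD7, RAD18, EMP3 and COL16A1, with Pearson correlations of 0.981, 0.980, 0.976, 0.973 and 0.972. The 18 points fall into 6 groups and share the difference between the lines, so the values describe likeness only. In Huh7, EMP3 went from a mean level of -2.59 in control to 0.56 after 5-FU and 0.77 after DSF, and COL16A1, a collagen chain, from -4.37 to -0.51 and -0.34. Within the family, MMP24 was at rank 31 with a correlation of 0.946 and TIMP1 at rank 109 with 0.909.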

How the data were processed

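RNA of sorted EpCAM+ cells was labelled with Cy3 and hybridised to SurePrint G3 human arrays. The authors deposited 1 scanner file an array, whose processed signal is a background-subtracted intensity (Feature Extraction 10.7.1.1 per the file headers and the submitters' processing notes), and a value table in which they give each probe as a linear ratio to the 75th percentile of its array, made in GeneSpring per the methods. The log2 intensities deposited by the authors were averaged over unflagged spots of a probe, and the log2 75th percentile of the array was subtracted.

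1 limma fit (limma 3.58.1, R 4.3.3) covered the 6 groups and 18 arrays. Tests ran on 29894 of 42327 probes, those that every array of 1 or more groups showed well above background, with Benjamini-Hochberg adjustment over all of them and a threshold of 0.05. A gene was read by its brightest probe, and counts over genes used 15844. The fit was tested on simulated data. Arrays have no read depth, and their number, 3 a group, limits the precision. Groups were taken from the labels.

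The genes, the lists and the tests were chosen with earlier results of these data known. Genes named besides the 10 were, in each list and line, up to 3 with the largest called DSF changes without overlap, up to 3 with the largest 5-FU differences (values only), and the 5 probes most correlated with MMP7; a gene that this rule also names is not reported here. The chromosome 11 neighbours, ADAM19 and the promoter windows were chosen after values were seen. Promoter windows came from RefSeq (GRCh38.p14), and no coordinates were converted. Alternatives were normexp background correction (offset 50, on the median signal, since the files used here hold no mean signal column), quantile, median and spike-in scaling (6 spike-in probes), other filters, the authors' ratios, slide or replicate number as a block, each line alone, a robust trend, the mean of all probes of a gene, and leaving out each array.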

Additional observations from a re-analysis of the deposited data

Results flagged for a closer look

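The DSF change differed between Huh7 and Huh1, by the interaction term of the limma fit, for 7 of the 10 genes, where 46.3% of all genes did. MMP7 is one of them as a description only, since its control level entered the choice of the family. The change in Huh7 minus the change in Huh1 was 5.92 ± 0.45 log2 units for MMP7, 3.17 ± 0.40 for MMP24 (adjusted p = 3.64e-05) and 2.12 ± 0.45 for TIMP1 (adjusted p = 0.00203). In untreated Huh7 cells these 3 genes were at or near background, and with normexp correction the values were 2.52 for MMP7, 1.61 for MMP24 and 0.30 for TIMP1, the last no longer past the threshold. TIMP3 fell less in Huh7, with a difference of 0.84 ± 0.17 (adjusted p = 0.00112). TIMP2 differed by -1.04 ± 0.16 (adjusted p = 1.93e-04), MMP11 by -0.83 ± 0.29 (adjusted p = 0.0347) and MMP15 by -0.64 ± 0.18 (adjusted p = 0.0113). With slide as a block, which left 1 Huh7 DSF array, the differences of MMP11 and MMP15 were -0.80 and -0.64. MMP11 failed the test when any 1 of 8 arrays was left out (Huh1 control replicate 1, Huh1 DSF replicates 1 and 3, Huh7 control replicates 2 and 3, and each Huh7 DSF array), at -0.85 to -0.76.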

How the results depend on the processing

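Leaving out 1 array at a time, 7 to 8 of the 10 genes passed after DSF in Huh1, 7 to 9 in Huh7, 7 to 9 between control cells, 6 to 8 for the line difference, and 4 to 5 of 9 between DSF and 5-FU in each line. Requiring every array to be well above background left 5 calls after DSF in Huh1, since MMP1, MMP7 and TIMP1 were then not tested. The arrays of slide 1 alone also left 5 there. Within slide 1 or 2 alone was an alternative chosen after seeing the data. Between DSF and 5-FU, spike-in scaling gave 7 calls in Huh1 and 9 in Huh7. Slide as a block or slide 2 alone left 1 Huh7 DSF array, so no calls are counted there. MMP7 after 5-FU was 2.58 in Huh1 and 6.93 in Huh7 with spike-in scaling, and 2.61 in Huh7 with normexp, against 1.55 to 2.11 and 5.62 to 6.35 leaving out 1 array. MMP7 minus TIMP1 in Huh7 was 2.80 (DSF) and 0.83 (5-FU) with normexp. The causes were not tested.

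These single differences turned their sign. With spike-in scaling they were, for DSF in Huh1, MMP15 at 0.048 and TIMP2 at 0.12; for 5-FU, MMP15 at 0.52 and TIMP3 at 0.31 in Huh1 and MMP15 at 0.64, TIMP2 at 0.48 and TIMP3 at 0.50 in Huh7; for DSF minus 5-FU in Huh1, MMP7 at -0.55, MMP9 at -0.30, MMP15 at -0.47, MMP24 at -0.68 and TIMP1 at -0.49; and in Huh7, MMP9 at -1.14, MMP11 at -0.52, MMP24 at -0.88 and TIMP3 at -1.03. With normexp they were TIMP2 after DSF in Huh1 at 0.0024, MMP1 after 5-FU in Huh1 at -0.28, MMP9 after 5-FU at -0.17 in Huh1 and -0.06 in Huh7, MMP14 minus TIMP2 after 5-FU in Huh1 at -0.097 and, for DSF minus 5-FU in Huh1, MMP11 at 0.36 and MMP24 at -0.025. With quantile and median scaling, MMP9 between control cells was -0.027 and -0.028, and for DSF minus 5-FU in Huh7 -0.0291 and -0.0292; TIMP2 after DSF in Huh1 was 0.014 with quantile scaling, and for DSF minus 5-FU in Huh1 MMP24 was -0.14 and MMP7 -0.0042 with median scaling. With slide as a block or the slide alone, DSF minus 5-FU was -0.0065 for MMP24 in Huh1 and -0.18 for MMP9 in Huh7. Leaving out 1 array, the values that crossed 0 ranged from -0.24 to 0.0013 for MMP15 and from -0.064 to 0.095 for TIMP2 (DSF in Huh1), from -0.93 to 0.042 for MMP1 between control cells, from -0.24 to 0.21 for MMP11 and from -0.10 to 0.070 for MMP24 (DSF minus 5-FU in Huh1), from -0.041 to 0.12 for MMP9 (DSF minus 5-FU in Huh7), from -0.30 to 0.24 for MMP14 minus TIMP2 and from -0.014 to 0.096 for MMP9 (5-FU in Huh1), and from -0.029 to 0.24 for MMP7 (DSF minus 5-FU in Huh1).

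Replicate numbers did not pair the arrays: of 45 same-numbered pairs of arrays from different groups, 1 had deviations that correlated above 0.1. With the replicate number as a block, 7 genes passed after DSF in Huh1 and 8 in Huh7. For genes read by 1 probe, the mean of all probes gives the same value. Signals near background limit MMP1, MMP7, MMP24 and TIMP1 in untreated Huh7 cells, and MMP1 in untreated Huh1 cells.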
